A study of Mus musculus with 8 samples.

Results

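The miR-17-92a cluster comprises 6 miRNA hairpins that are cut from 1 primary transcript, and 10 of its mature miRNAs, as listed in the deposited small-RNA libraries of mouse liver, are described here. The members were taken by name from the hairpins of the cluster and not by a cut on their values, although earlier results of these data were known. A further listed arm, mmu-miR-19b-1-5p, is not among them. They are mmu-miR-17-5p, mmu-miR-17-3p, mmu-miR-18a-5p, mmu-miR-18a-3p, mmu-miR-19a-3p, mmu-miR-20a-5p, mmu-miR-20a-3p, mmu-miR-19b-3p, mmu-miR-92a-3p and mmu-miR-92a-1-5p. They make up 10 of the 1341 known mature miRNAs listed in any library and, of the 475 miRNAs abundant enough to be tested, 8.

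Small RNA of 18 to 30 bases was sequenced from the left liver lobe of 4 wild type (WT) and 4 Snd1 knockout (KO) mice, 1 library per mouse. All were male C57BL/6N mice, 8 to 12 weeks old, that had not been fasted. The KO mice lack the first exon of Snd1 in every tissue, after germline deletion with a CAG-Cre transgene in a line made from 129/Sv embryonic stem cells and backcrossed to C57BL/6N, and WT mice were littermates from heterozygous parents. Snd1, also called Tudor-SN, is an RNA-binding nuclease that has been linked to miRNA decay. The study's authors also cite earlier work in which SND1 held back processing of this cluster's primary transcript under hypoxia. The comparison asks which miRNAs differ in level when Snd1 is missing. Small-RNA libraries hold no measurement of the Snd1 mRNA, so the genotype labels were not checked here against the targeted gene.

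A miRNA hairpin has 2 arms, named 5p and 3p, and each can give a mature miRNA that guides the silencing complex to mRNAs paired with its seed, bases 2 to 8 from the 5′ end. The miR-17-92a cluster is known as a target of the transcription factor Myc and as an oncogenic cluster in B cell lymphoma. In mice its deletion impairs B cell development and lung growth. Its miRNAs act on mRNAs of cell cycle inhibitors and pro-apoptotic proteins.

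In the GRCm38 genome the hairpins lie on the plus strand of chromosome 14, from 115043671 to 115044506, a span of 836 bases. Their order from the 5′ end is Mir17, Mir18, Mir19a, Mir20a, Mir19b-1 and Mir92-1. All 6 lie within exon 2 (115043271 to 115046727) of the non-coding host gene Mir17hg (115042879 to 115046727), by the GENCODE M21 annotation. The mature sequences below, from the RefSeq table for GRCm38.p6 in which all 10 members were found, are shown because they group the members. The seed is in capitals.
mmu-miR-17-5p: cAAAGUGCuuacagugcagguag
mmu-miR-20a-5p: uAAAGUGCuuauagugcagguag
mmu-miR-18a-5p: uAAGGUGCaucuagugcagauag
mmu-miR-19a-3p: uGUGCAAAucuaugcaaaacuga
mmu-miR-19b-3p: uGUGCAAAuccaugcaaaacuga
mmu-miR-92a-3p: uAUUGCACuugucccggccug
mmu-miR-17-3p: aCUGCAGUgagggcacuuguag
mmu-miR-20a-3p: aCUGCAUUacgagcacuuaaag
mmu-miR-18a-3p: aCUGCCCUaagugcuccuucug
mmu-miR-92a-1-5p: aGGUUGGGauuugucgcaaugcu

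The first 6 are the arms that usually act as guides, and the last 4 are their opposite arms. Mature miR-17-5p and miR-20a-5p share a seed and differ by C1U and C12U, counted from the 5′ end with the base of miR-17-5p first. Mature miR-19a-3p and miR-19b-3p share a seed and differ only by U11C, with the base of miR-19a-3p first. The seed of miR-18a-5p is not that of miR-17-5p. The remaining arms of the same hairpins are miR-19a-5p, which was listed in no library, and miR-19b-1-5p, whose values are given with those of the related miRNAs.

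Levels are given as CPM, the tags of a miRNA per 1000000 tags sequenced in its library, without division by length, which is near equal among mature miRNAs. Library totals ranged from 16223610 to 27526162 tags, so that 1 tag was worth 0.0363 to 0.0616 CPM. Known miRNAs took 57.9% to 78.7% of the tags. This share separated the libraries into 4 with a higher share (WT1, WT2, KO2 and KO3, 75.9% to 78.7%) and 4 with a lower share (WT3, WT4, KO1 and KO4, 57.9% to 67.6%), and each set holds 2 mice of each genotype. The share averaged 71.8% ± 7.96 in WT and 69.3% ± 9.20 in KO (SD, n = 4 each).

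The 10 members differed in level by more than 3 orders of magnitude although their hairpins are cut from the same transcript. Member mmu-miR-92a-3p was the most abundant, at 4184, 3366, 5625 and 6121 CPM in WT1 to WT4 and 4374, 7142, 6077 and 6186 CPM in KO1 to KO4. It alone made up 83.6% to 94.4% of the summed level of the 10 members. The genotypes overlapped, and the lowest library was WT2 and the highest KO2.

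Next came mmu-miR-19b-3p, with 333, 459, 213 and 335 CPM in WT1 to WT4 and 272, 475, 394 and 249 CPM in KO1 to KO4. Its ranges in the 2 genotypes nearly coincided. Among the other 9 members it made up 52.6% to 69.4% of the sum. Both miR-92a-3p and miR-19b-3p can also come from a second hairpin, Mir92-2 or Mir19b-2, in a related cluster on chromosome X, and tags of the 2 sources cannot be told apart.

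The level of mmu-miR-20a-5p was 109, 85.9, 45.3 and 80.7 CPM in WT1 to WT4 and 50.03, 142.2, 168 and 40.2 CPM in KO1 to KO4. In KO2 and KO3 it was above all WT livers, in KO1 it was below 3 of the 4 WT livers and in KO4 below all 4. For mmu-miR-17-5p the values were 60.6, 71.6, 44.4 and 95.7 CPM in WT and 46.0, 74.7, 130.3 and 35.85 CPM in KO. Again KO3 was highest and KO4 lowest.

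The opposite arm of the same hairpin, mmu-miR-17-3p, was at 19.4, 19.96, 17.8 and 19.8 CPM in WT and 20.7, 24.3, 22.3 and 18.5 CPM in KO. All 8 livers lay within a 1.36-fold range, against a 3.63-fold range for miR-17-5p. Guide arm mmu-miR-18a-5p was close to it in level, at 16.15, 18.0, 14.5 and 23.5 CPM in WT and 15.4, 23.3, 28.5 and 17.1 CPM in KO.

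The other 4 members were near 1 CPM. The level of mmu-miR-19a-3p was 1.02, 2.56, 2.84 and 1.76 CPM in WT and 1.93, 1.96, 1.74 and 0.87 CPM in KO, from 21 to 67 tags. That of mmu-miR-20a-3p was 1.63, 2.06, 0.62 and 1.18 CPM in WT and 0.46, 1.53, 2.36 and 0.54 CPM in KO. Libraries that were low for miR-20a-5p (WT3, KO1, KO4) were also the lowest for miR-20a-3p.

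Arm mmu-miR-18a-3p was at 0.65, 0.99, 3.88 and 1.82 CPM in WT and 1.93, 0.73, 0.77 and 0.99 CPM in KO. The value of WT3 rested on 63 tags, with a 95% Clopper-Pearson interval of 2.98 to 4.97 CPM. For mmu-miR-92a-1-5p the values were 1.71, 0.76, 0.55 and 0.91 CPM in WT and 0.78, 3.89, 2.36 and 0.87 CPM in KO, and the value of KO2 rested on 107 tags (3.19 to 4.70 CPM). Both arms reached 1 CPM in only 3 libraries and were therefore not tested. These intervals cover counting error only.

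**Figure D1:**
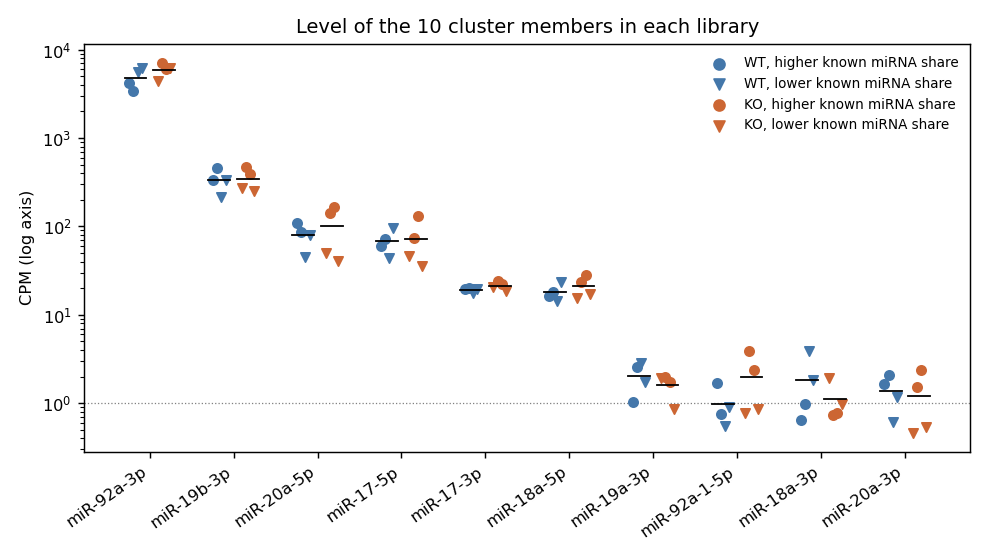
Levels of the 10 members in CPM on a log axis, in order of their mean over 8 libraries, with WT in blue and KO in orange, circles for libraries of higher and triangles for those of lower known miRNA share, and short lines for the genotype means. The points run from 3366 to 7142 CPM for miR-92a-3p down to values near the dotted line at 1 CPM, and WT and KO points overlap for every member.

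The order of the 3 most abundant members held in 8 of 8 libraries. Levels of miR-92a-3p exceeded those of miR-19b-3p by 7.34-fold to 26.4-fold, and those of miR-19b-3p exceeded miR-20a-5p by 2.35-fold to 6.20-fold, with ranges that did not overlap. Guide arms miR-20a-5p and miR-17-5p were not separated, with miR-20a-5p the higher in 7 of 8 libraries by a median of 1.16-fold and overlapping ranges. Nor were miR-17-3p and miR-18a-5p (miR-17-3p higher in 6 of 8), nor any neighbours among the 4 members near 1 CPM. The step from miR-18a-5p to miR-19a-3p was 5.10-fold to 19.7-fold.

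The widest gap between near-identical members was that of the miR-19 guide arms. The level of miR-19b-3p exceeded that of miR-19a-3p by 75.0-fold in WT3 to 326-fold in WT1, for molecules that share a seed and differ by U11C. How tags that match both within a mismatch were assigned is not stated in the sources used here.

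In the comparison of KO with WT liver, none of the 8 tested members was called, and none of the 475 miRNAs tested passed an adjusted p of 0.05 (limma, 0% called, with 20 miRNAs or 4.21% at an unadjusted p under 0.05 and no member among them). Among the 8 tested, the member with the largest estimate was miR-92a-3p, at 4824 ± 1273 CPM in WT and 5945 ± 1151 CPM in KO (SD, n = 4 each). Its log2 fold change was 0.32 (SE 0.26, limma adjusted p = 0.860), and between 0.16 (without WT2) and 0.46 (without KO1) when 1 library was left out. For all members the 4 KO values overlapped the 4 WT values, as they did for all but 14 of the tested miRNAs (2.95% not overlapping).

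Guide arms miR-20a-5p (80.3 ± 26.5 CPM in WT, 100.0 ± 64.3 in KO) and miR-17-5p (68.1 ± 21.5 and 71.7 ± 42.4) had log2 fold changes of 0.12 (SE 0.51) and -0.05 (SE 0.44). For both the SD was larger in KO than in WT. Guide arm miR-19b-3p had means of 335 ± 100.4 and 348 ± 106 CPM and a log2 fold change of 0.06 (SE 0.33). For miR-18a-5p (18.0 ± 3.92 and 21.1 ± 6.01 CPM) it was 0.20 (SE 0.32).

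Members at lower levels had differences of the same order on the log2(CPM + 1) scale, which understates those of members near 1 CPM. Log2 fold changes were 0.14 (SE 0.26) for miR-17-3p, -0.19 (SE 0.28) for miR-19a-3p and -0.14 (SE 0.33) for miR-20a-3p. In a limma-voom fit on tag numbers they were 0.15, -0.28 and -0.37. Adjusted p-values of the 8 members lay between 0.860 and 0.979 (limma). Of the 8, 5 had a positive and 3 a negative estimate, with a median of 0.09. Over all 475 tested miRNAs, 196 were positive and 279 negative, with a median of -0.11. In whole liver, fewer cells of a type and less RNA per cell cannot be told apart.

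The summed level of the 10 members was 4728, 4027, 5968 and 6681 CPM in WT and 4783, 7890.2, 6827 and 6549.8 CPM in KO. As a share of known miRNA tags this was 0.512% to 0.988% in WT and 0.826% to 1.04% in KO. The log2 ratio of KO to WT for the sum was 0.29. Without miR-92a-3p it was 0.07. Since miR-92a-3p made up 83.6% to 94.4% of the sum in each library, the ratio of the sum mostly repeats that of this member.

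A model that pools the tags of the 4 mice of each genotype, with the formula of the DEGseq tool named in the study's methods, gave other calls. It called 8 of the 10 members, 7 higher in KO and 1 lower (miR-18a-3p), against 33.7% of the 1341 known miRNAs. Its calls depend on tag numbers, and most of the 1341 are below the minimum that 8 of the members pass. The share called among the 475 tested miRNAs is not given, so the 2 shares are not a like comparison. The pooled log2 ratios were largest in size for 2 of the arms near 1 CPM, at 1.08 for miR-92a-1-5p and -0.54 for miR-18a-3p, and among the abundant members they were 0.44 for miR-92a-3p, 0.37 for miR-20a-5p and 0.09 for miR-19b-3p. That model counts sampling of tags as the only error, while the members spread between mice of 1 genotype by SDs of 0.12 (miR-17-3p) to 0.82 (miR-20a-5p) on the log2(CPM + 1) scale. The pooled ratios were also scaled to known miRNA tags, not to all tags, and weight the mice by depth. With levels scaled to known miRNA tags, the limma log2 fold changes were 0.37 for miR-92a-3p, 0.17 for miR-20a-5p and 0.11 for miR-19b-3p.

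Within the libraries of higher and of lower known miRNA share, the estimates for KO against WT had opposite signs for 7 of the 8 tested members and for 43.6% of all 475 tested miRNAs. Among the 4 libraries of higher share, the estimate was positive for all 8 tested members and for 54.3% of all tested miRNAs, with log2 fold changes of 0.81 for miR-92a-3p, 0.66 for miR-20a-5p, 0.58 for miR-17-5p and 0.57 for miR-18a-5p. Among the 4 of lower share the estimates were -0.17, -0.42, -0.67 and -0.18 for the same members, and 1 of 8 members was positive, against 31.4% of all tested. The difference was higher in the first set than in the second by a median of 0.65 over the members and of 0.27 over all tested miRNAs. The sum of the 10 members had a log2 ratio of 0.75 in the first set and -0.17 in the second.

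The change of the genotype difference between the sets did not pass the test for any of the 475 miRNAs (limma, term for genotype by set, 0 called and 31 at an unadjusted p under 0.05). The member nearest to it was miR-92a-3p (difference 0.99, SE 0.33, adjusted p = 0.640). The sets were drawn from the data and hold 2 mice of each genotype.

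**Figure D2:**
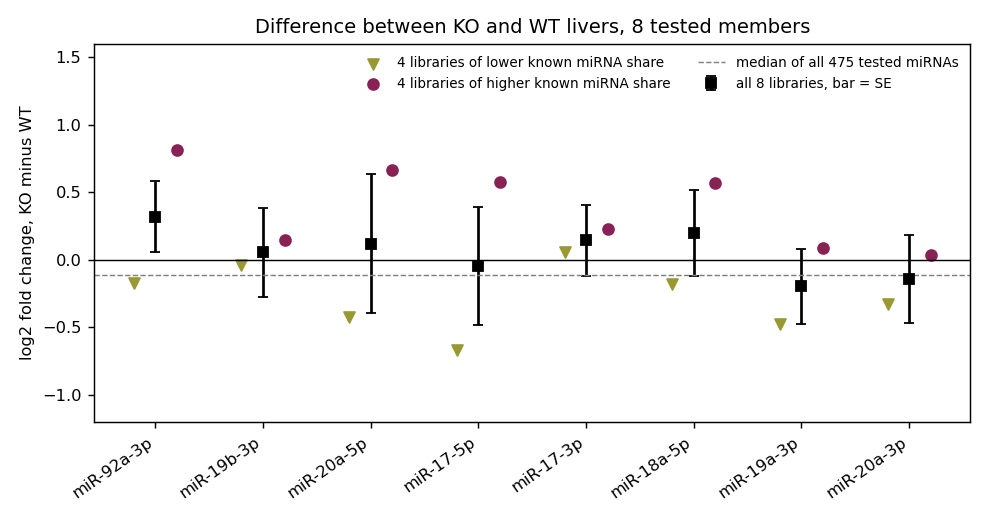
Log2 fold change of KO minus WT for the 8 tested members (vertical axis), for all 8 libraries (black squares, bars are 1 SE) and within the 4 libraries of lower (triangles) and of higher (circles) known miRNA share. The squares lie between -0.19 and 0.32 around the median of all tested miRNAs (dashed line), and each circle lies above its triangle.

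The members also differed in how far their level moved with the known miRNA share. Since CPM counts all tags, a miRNA with a constant part of the known miRNA tags has a higher CPM in libraries of higher share. In the libraries of higher share, miR-20a-5p was at 85.9 to 168 CPM and in those of lower share at 40.2 to 80.7 CPM, without overlap. For miR-20a-3p the ranges were 1.53 to 2.36 and 0.46 to 1.18 CPM, also without overlap. These were 2 of 8 members, both higher in the libraries of higher share, where 30.7% of tested miRNAs did not overlap in either direction and 9.68% were higher in those libraries.

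Guide arm miR-19b-3p overlapped by a narrow margin (333 to 475 against 213 to 335 CPM). In contrast, miR-92a-3p had nearly the same mean CPM in both sets, 5192 and 5577. As a share of known miRNA tags, the sum of the 10 members, mostly miR-92a-3p, averaged 0.759% and 0.940%, with overlap. The ratio of miR-92a-3p to miR-19b-3p was thus 7.34 to 15.4 in the libraries of higher share and 16.1 to 26.4 in those of lower share, without overlap. The ratio of miR-20a-5p to miR-17-5p was 1.20 to 1.90 and 0.844 to 1.12, again without overlap. Ratios of miR-18a-5p to miR-18a-3p, miR-92a-3p to miR-92a-1-5p and miR-20a-5p to miR-20b-5p did not overlap either, while the remaining ratios examined did. The share of such ratios among all tested miRNAs was not computed, and 30.7% of single miRNAs did not overlap.

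**Figure D3:**
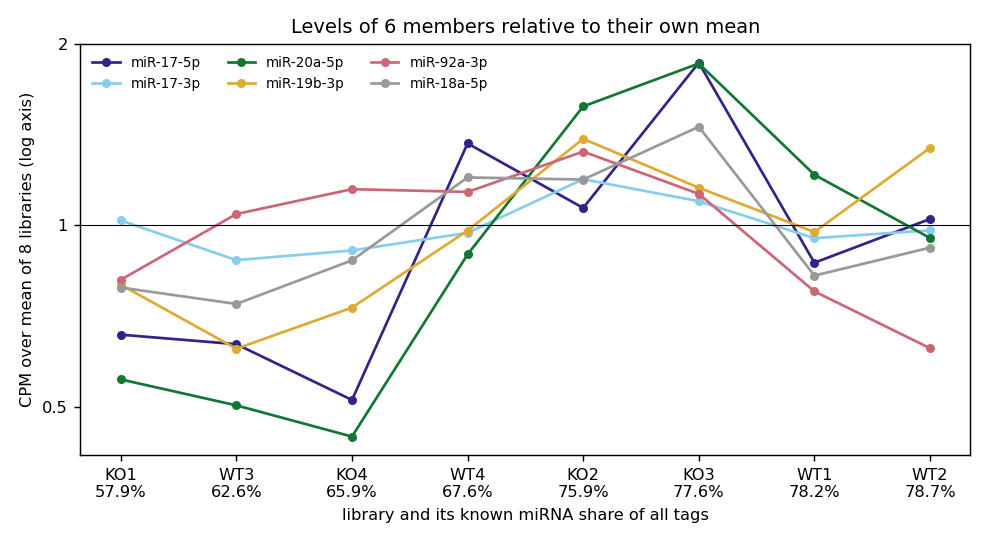
Level of 6 members in each library divided by the mean of that member over 8 libraries (vertical, log axis), with libraries ordered by known miRNA share of all tags (horizontal). The lines of miR-20a-5p and miR-17-5p span the widest range, with their peaks in KO3 and their lowest points in KO4, and the line of miR-17-3p stays near 1.

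Within a genotype, miR-17-3p was among the least variable miRNAs of the data. Its SD on the log2(CPM + 1) scale was 0.12, and 1 of 475 tested miRNAs had a smaller one, beside a median SD of 0.52. The SD of miR-17-5p was 0.66 and that of miR-20a-5p 0.82, larger than those of 320 and 385 tested miRNAs. For the abundant members counting error is far smaller than this spread, since miR-17-5p was counted by 720 to 3369 tags and miR-20a-5p by 735 to 4332.

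The balance between the arms of a hairpin therefore varied. The ratio of miR-17-5p to miR-17-3p was 3.13, 3.59, 2.49 and 4.84 in WT1 to WT4 and 2.22, 3.08, 5.84 and 1.94 in KO1 to KO4. All livers had more of the 5p arm, and the genotypes overlapped (log2 difference -0.19, SE 0.42, limma adjusted p = 0.995). The ratio of miR-20a-5p to miR-20a-3p was 67.2, 41.7, 73.1 and 68.4 in WT and 108.8, 92.9, 71.0 and 74.4 in KO. The KO mean was above the WT mean, but the values overlapped. With 1 CPM added to each arm, the log2 difference was 0.26 (SE 0.36, limma adjusted p = 0.995). That addition understates the difference in the printed ratios, and with 0.5 CPM added it was 0.33. The ratio of KO1 rests on 10 tags of miR-20a-3p (95% interval 0.22 to 0.85 CPM), that of WT3 on 10 and that of KO4 on 13.

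In the hairpin of miR-18a the 5p arm exceeded the 3p arm by 3.74-fold in WT3 to 37.1-fold in KO3. For miR-92a-1 the 3p arm exceeded the 5p arm by 1836-fold in KO2 to 10228-fold in WT3, if all miR-92a-3p is assigned to this hairpin. Over the 148 pairs of arms tested across all hairpins, no ratio differed between genotypes (limma, 0% called, 4 pairs or 2.7% at an unadjusted p under 0.05). The arm pairs of miR-18a and miR-92a-1 were not among the tested, because 1 arm was below the minimum.

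The mouse genome holds 2 related clusters. One lies on chromosome X (Mir106a, Mir18b, Mir20b, Mir19b-2, Mir92-2 and Mir363) and the other in an intron of Mcm7 on chromosome 5 (Mir106b, Mir93 and Mir25). The sequences below are shown because they carry the seed of a member and differ from it at other bases.
mmu-miR-106a-5p: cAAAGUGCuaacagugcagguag
mmu-miR-20b-5p: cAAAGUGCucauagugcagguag
mmu-miR-93-5p: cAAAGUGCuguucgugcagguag
mmu-miR-18b-5p: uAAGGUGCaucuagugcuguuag
mmu-miR-25-3p: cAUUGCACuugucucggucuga

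Arms that can only come from the cluster on chromosome X were rare. Relative to miR-17-5p, miR-106a-5p differs by U10A, and it was listed at 0.04 to 0.35 CPM, 164-fold to 896-fold below miR-17-5p. Relative to miR-18a-5p, miR-18b-5p differs by A18U and A20U, and it was at 0.06 to 0.18 CPM. The level of miR-20b-5p was 1.29 to 3.27 CPM, 24.6-fold to 64.1-fold below miR-20a-5p.

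The opposite arms of the hairpins for miR-19b-3p and miR-92a-3p differ between the clusters. From chromosome 14, miR-19b-1-5p was at 0.12 to 1.26 CPM and miR-92a-1-5p at 0.55 to 3.89 CPM, each in 8 of 8 libraries. From chromosome X, miR-92a-2-5p was at 0.05 and 0.04 CPM in KO1 and KO3 and listed in no other library, and miR-19b-2-5p was listed in none. A count of 0 allows up to 3 tags, or 0.109 to 0.185 CPM by library. Of the 10 arms of that cluster that are not shared, 7 were listed in at least 1 library and 1 (miR-20b-5p) was tested.

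The 6 arms of the Mcm7 cluster were all tested and none was called (limma, 0% of all tested as above). Estimates for KO minus WT were negative for 5 and positive for 1, with a median of -0.45. Over all 475 tested miRNAs they were negative for 279 and positive for 196, with a median of -0.11. Those of the miR-17-92a members had a median of 0.09. The difference between the clusters was not tested.

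Members that share a seed with the other clusters contributed very different parts of their seed group. Together, miR-17-5p and miR-20a-5p made up 11.3% to 22.2% of the summed CPM of the 6 listed miRNAs with their seed. Most of that group was miR-93-5p of the Mcm7 cluster, which was at 1317, 1033, 576 and 765 CPM in WT and 478, 1163, 1023 and 452 CPM in KO, 7.85-fold to 21.7-fold above miR-17-5p. Its levels in libraries of higher share were all above those of lower share, as for miR-20a-5p.

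In the seed group of miR-92a-3p the cluster was dominant. That member made up 92.1% to 97.2% of the 5 listed miRNAs of the group, with miR-25-3p next at 125 to 322 CPM. Among listed miRNAs with a sequence, the seed of miR-19a-3p and miR-19b-3p was found in these 2 members only, and miR-18a-5p made up 98.8% to 99.6% of its group, which it shares with miR-18b-5p. Opposite arms miR-17-3p, miR-20a-3p and miR-92a-1-5p shared their seeds with no other listed miRNA, and miR-18a-3p shared its seed with miR-7069-3p (0.73 to 1.71 CPM).

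**Figure D4:**
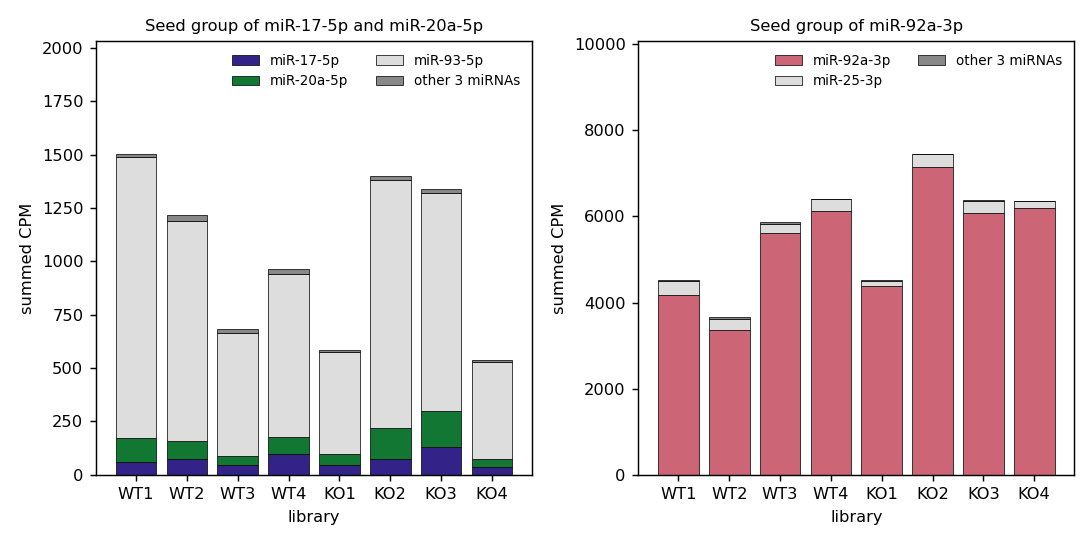
Summed CPM of the miRNAs with the seed of miR-17-5p and miR-20a-5p (left) and with the seed of miR-92a-3p (right) in each library, stacked by miRNA, with both axes from 0. On the left the members form 11.3% to 22.2% of each bar and miR-93-5p most of the rest, and on the right miR-92a-3p forms 92.1% to 97.2%.

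Likeness of pattern was measured as the SD over the 8 libraries of the difference in log2(CPM + 1) between a member and each of the 474 other tested miRNAs. A small SD means that the difference between them stayed nearly constant on this scale, as it also does where neither varies much. The added 1 CPM narrows the movement of miRNAs near 1 CPM. SDs that involve miR-20a-3p or miR-19a-3p therefore do not measure the spread of their CPM ratios. The points share their libraries and the composition of each, so the SDs are descriptions. For 8 of 8 members the nearest miRNA was not another member. Nearest were miR-29a-3p for miR-17-5p (SD 0.32), miR-345-5p for miR-17-3p (0.12), miR-181a-5p for miR-18a-5p (0.14) and miR-3105-3p for miR-19a-3p (0.24).

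For miR-20a-5p it was miR-467b-5p (0.26), for miR-20a-3p let-7a-5p (0.12), for miR-19b-3p miR-7688-5p (0.21) and for miR-92a-3p miR-1843a-5p (0.25). The nearest other member ranked 4 for miR-17-5p (miR-20a-3p, SD 0.34) and 6 for miR-19b-3p (miR-20a-3p, SD 0.25). Both ranks, and the SD of 0.12 to let-7a-5p, lean on the added 1 CPM, since miR-20a-3p ranged 5.13-fold in CPM. For the other 6 the nearest other member ranked between 11 and 39 of 474. Arms of the same hairpin were not each other's nearest member, with miR-17-3p at rank 87 for miR-17-5p (SD 0.54) and miR-20a-3p at rank 13 for miR-20a-5p (0.40).

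The median SD to the other members was below the median SD to all tested miRNAs for each of the 8, for example 0.43 against 0.80 for miR-17-5p and 0.58 against 0.63 for miR-92a-3p. Guide arm miR-92a-3p had the largest median SD to the other members, with SDs of 0.80 to miR-20a-5p and 0.66 to miR-17-5p.

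**Figure D5:**
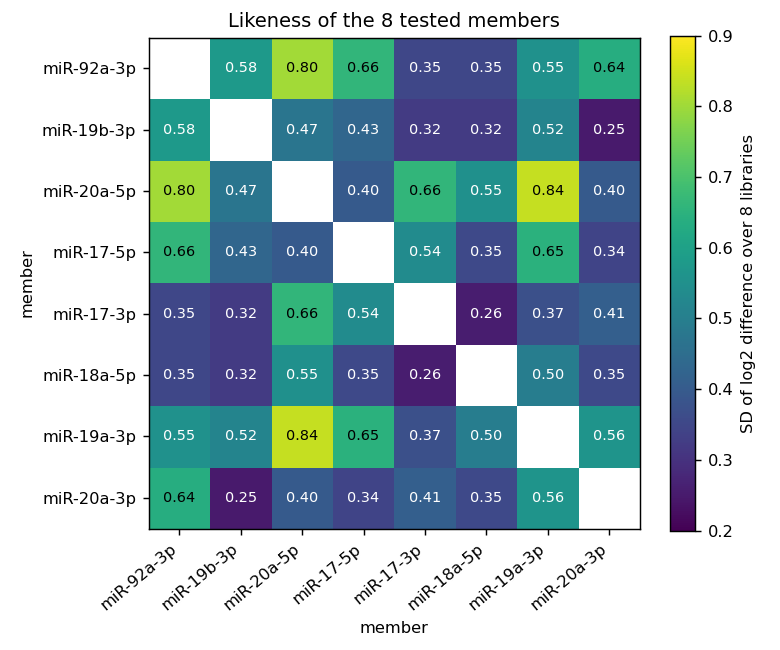
SD over 8 libraries of the difference in log2(CPM + 1) for each pair of the 8 tested members, on both axes, with darker cells for smaller SDs. The smallest value is 0.25 (miR-19b-3p with miR-20a-3p) and the largest 0.84 (miR-20a-5p with miR-19a-3p). The added 1 CPM narrows the movement of miR-20a-3p and miR-19a-3p, which are near 1 CPM.

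Markers of liver cell types were compared beside the members, which are made in many cell types. The hepatocyte miRNA miR-122-5p was at 206141 to 351742 CPM. The summed level of 5 hepatocyte miRNAs was 246362 to 375865 CPM in WT and 252801 to 384155 CPM in KO. Those of 6 leukocyte miRNAs were 1127 to 1764 and 1408 to 1887 CPM, of 4 erythroid miRNAs 8089 to 17397 and 7363 to 15235 CPM, and of 2 endothelial miRNAs 6236 to 19516 and 5812 to 17880 CPM. The leukocyte sum was mostly miR-146a-5p (908 to 1405 CPM), and miR-150-5p was at 9.62 CPM in WT1. Estimates for KO minus WT were positive for 196 of all 475 tested miRNAs. They were positive for 2 of 5 hepatocyte, 2 of 6 leukocyte, 0 of 4 erythroid and 1 of 2 endothelial markers. Their median log2 fold changes were -0.25, -0.39, -0.53 and -0.24, beside -0.11 over all tested miRNAs. No marker was called by limma or at 0 in any library.

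The hepatocyte, erythroid and endothelial sums were each higher in the 4 libraries of higher known miRNA share than in the other 4, without overlap. Each of these sums was carried by 1 miRNA that did not overlap between the sets, namely miR-122-5p, miR-451a and miR-126a-3p. The sets were split by the summed share of known miRNAs, of which these markers are a part. For miR-122-5p, with means of 323970 CPM at higher and 228430 CPM at lower share, the separation was partly built into the split. The other markers of these lists overlapped, except miR-122-3p, which was lower in the libraries of higher share. Member miR-20a-5p was also higher in the libraries of higher share, and the part of cell composition, blood content or library composition in its level was not tested. The endothelial sum in the libraries of higher share was 12518 to 19516 CPM, against 5812 to 6653 CPM in the others.

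In human cells the nuclease was described to cut mature miRNAs at CA and UA dinucleotides more than 5 bases from their ends. All 10 members carry at least 1 CA or UA there, by a search of the mature strand, as do 320 of the 402 tested miRNAs with a sequence in the table (79.6%). Members have 1 to 3 of them, with 3 in miR-17-5p, miR-18a-5p and miR-20a-5p, and 1 in miR-92a-3p, miR-17-3p, miR-18a-3p and miR-92a-1-5p. Log2 fold changes were -0.05, 0.20 and 0.12 for the tested members with 3 sites, -0.19, -0.14 and 0.06 for those with 2 (miR-19a-3p, miR-20a-3p and miR-19b-3p), and 0.32 and 0.14 for those with 1 (miR-92a-3p and miR-17-3p). The median GC content was 45.7% for the members and 50% for tested miRNAs with a sequence.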

How the data were processed

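Small-RNA libraries of 4 WT and 4 KO livers were examined, 1 per mouse. RNA of 18 to 30 bases was sequenced on the BGISEQ-500 platform, the tags were cleaned of adaptor and low-quality tags, and the authors mapped them with Bowtie (version not given in the sources used here) to GRCm38 and compared genotypes with DEGseq. The values deposited by the authors are CPM, headed TPM, per 1000000 tags of all small RNA classes, rounded to 2 decimals. How tags with several matches were counted is not stated in the sources used here. One file, that of KO replicate 1, lists no genomic classes.

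A known miRNA missing from a file was given 0 CPM. Tests were run on miRNAs that reached 1 CPM in 4 or more of the 8 libraries, with limma 3.58.1 (R 4.3.3, mean-variance trend) on log2(CPM + 1), and with Benjamini-Hochberg adjustment over the 475 tested and a threshold of 0.05. Fold changes on this scale understate those of low miRNAs. Arm ratios were tested likewise over 148 pairs. The fit was tested on simulated data. Library totals were taken as the smallest at which 100% of the CPM values came to whole tags, to within 0.0051 CPM. A stricter check of the steps of the values did not accept whole tags in most files, so tag numbers, counting intervals and pooled calls rest on these totals. The tags were used for limma-voom and a pooled model with the MA-plot formula of DEGseq, which was scaled to the known miRNA tags of each genotype. Count models were not fitted, because the files hold CPM. Tags are PCR reads without molecular identifiers, and p-values measure the spread between these 8 mice.

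All 10 members were named, with arms of the 2 related clusters and same-seed miRNAs, and for each tested member the nearest tested miRNA. Members and lists were chosen with earlier results of these data known. Alternatives were other pseudocounts, minimums, scalings and models, the replicate number as a block, the set of 4 libraries of higher or lower known miRNA share as a covariate, and each library left out. Python 3.11 was used for the rest.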

Additional observations from a re-analysis of the deposited data

Results flagged for a closer look

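Among 32 groups of 4 livers, covering the level of each member, 5 arm ratios and the sum of the members in each genotype, 1 held a liver far from the others, where chance gives about 1 in 20, or 1.6. In WT3 the ratio of mmu-miR-19b-3p to mmu-miR-19b-1-5p was 1774, and in the other WT livers it was 282 to 364. The level of mmu-miR-19b-1-5p was 0.12 CPM in WT3 and 1.12 to 1.26 CPM in the other WT livers. In WT3 this is below the 0.185 CPM that 3 tags are worth there.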

How the results depend on the processing

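No member was called in the 19 alternative fits except by the model of pooled tags, which called 8 of 10 members and 452 miRNAs in all. Besides that model, 1 miRNA was called with the set of higher or lower known miRNA share as a covariate (miR-1247-5p) and 1 without WT replicate 2 (miR-196b-5p), both named after their values were seen, and neither is a member. Counts with 1 library left out ranged from 0 to 1 for all miRNAs and were 0 for members and for arm ratios. The log2 fold change of miR-17-5p was -0.05 in all libraries, 0.0050 when scaled to known miRNA tags, 0.16 with pooled tags and -0.39 to 0.22 with 1 library left out. Ranges with 1 library left out were -0.21 to 0.47 for miR-20a-5p, -0.14 to 0.22 for miR-19b-3p, -0.37 to 0.030 for miR-20a-3p, -0.12 to 0.22 for the median of the members, 0.16 to 0.43 for the sum and -0.51 to 0.011 for the arm ratio of miR-17. Without WT replicate 3 and KO replicate 1 together, miR-19b-3p was at -0.043. The estimates of miR-92a-3p, miR-17-3p and miR-18a-5p stayed positive and that of miR-19a-3p negative in each alternative fit that tested it, but within the sets of known miRNA share miR-92a-3p was at -0.17 and miR-18a-5p at -0.18 in the lower set and miR-19a-3p at 0.09 in the higher. With 1 library left out miR-92a-3p ranged from 0.16 to 0.46. The cause of these changes of sign was not tested, and none of the estimates passed the test. Replicate numbers are shared by the genotypes, but livers with the same number did not deviate together (correlations of -0.46, 0.35, -0.53 and 0.07 over tested miRNAs), and the replicate block called 0 miRNAs, with 15 at an unadjusted p under 0.05. Fits with edgeR and DESeq2 were not run, since the files hold CPM. limma-voom (0 called, 19 at an unadjusted p under 0.05), the fit within sets of known miRNA share, arm ratios without a minimum and the pair left out together were chosen after seeing the data. Depth limits the members near 1 CPM, with as few as 9 tags in a library.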
